A study of Homo sapiens with 12 samples.

Results

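The ATF4 amino acid response was followed in 41 genes that encode stress transcription factors, their effectors, serine, asparagine and one-carbon enzymes, amino acid transporters and tRNA synthetases. They were chosen by name, as the entries of the expression table whose Ensembl identifiers map to 41 listed symbols, and all 41 were found among 63036 entries. These genes, and the lists set beside them, were chosen with earlier results of these data known. Messenger RNA was profiled in HCT15 and HCT116 cells, established human colorectal carcinoma lines, each as cells overexpressing RNF26 and as control cells, with 3 libraries in each of the 4 groups. RNF26 is a ubiquitin ligase that sits in the membrane of the endoplasmic reticulum. The series title links it to growth and spread of colorectal cancer cells through Wnt signalling. The groups were RNF26-overexpressing HCT15, control HCT15, RNF26-overexpressing HCT116 and control HCT116. The labels name no other agent or time point, and they do not state the vector, the makeup of the control, or whether cells were pooled or cloned. Separate cultures are not stated for the libraries of a group either, so each p-value reflects the spread among these libraries alone, part of which may be technical.

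ATF4 is a basic leucine zipper transcription factor of the integrated stress response. When amino acids run short or the endoplasmic reticulum is stressed, kinases phosphorylate the initiation factor eIF2, bulk translation slows and ATF4 mRNA is translated more. ATF4 protein, usually paired with a C/EBP protein, then raises genes that take up and make amino acids, charge tRNAs and restrain mTORC1, and it also raises its own brakes, among them TRIB3. Colorectal carcinoma cells use the same genes to support growth on limited amino acids. The libraries measured mRNA, so ATF4 translation and protein were not measured.

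RNF26 mRNA stood at 53.5, 54.6 and 54.4 TPM (transcripts per 1000000) in RNF26 HCT15 libraries and at 26.7, 27.8 and 26.4 TPM in control HCT15 libraries, a log2 difference of 0.98 (SE 0.0915, adjusted p = 4.97e-05). In HCT116 it stood at 299, 334 and 255 TPM with RNF26 and at 15.6, 18.4 and 16.5 TPM in controls, a log2 difference of 4.05 (SE 0.0915, adjusted p = 1.21e-09). The label check held in both lines, and the RNF26 rise was smaller in HCT15 than in HCT116. TPM holds no read depth, which is therefore unknown here, and 13582 to 14135 genes reached 1 TPM in a library. Of 8 epithelial line markers 7 averaged 1 TPM or more in both HCT15 groups and 6 in both HCT116 groups, with CDX1 under 1 TPM in all 4 groups and VIL1 also in HCT116. All 4 endothelial markers and all 8 fibroblast markers but COL1A1 averaged under 1 TPM in every group, and among 8 immune markers CD68 passed 1 TPM in every group and CD14 in HCT15. HCT15 control replicate 3 stood apart, with 25.9% of its TPM from mitochondrial and 17.6% from ribosomal protein genes, against 16.4% to 17.7% and 21.8% to 24.3% in the other HCT15 controls. Ribosomal protein genes took 26.3% to 27.5% of TPM in RNF26 HCT15 libraries. In bulk libraries fewer cells expressing a gene and less RNA per cell cannot be told apart.

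The short DNA element through which ATF4 and C/EBP proteins act, the C/EBP-ATF response element, has the core TGATGNAA. It was sought on both strands of the RefSeq promoter of each member, from 250 bases before to 50 after the start (GRCh38.p14). Of the 35 members with a promoter entry 12 held it, 34.3% against 4.46% of 27303 promoters of all genes. The form TGATGCAA, which every TGATGNAA count includes, was held by 8 members, 22.9% against 1.08% of all promoters. The cAMP response element TGACGTCA and the endoplasmic reticulum stress response element were found in none of the 35, against 2.25% and 0.0916% of all promoters. The 12 matches are printed 5′ to 3′ on the strand that reads TGATG, with the core in capitals, because they are the letters the pathway is known to read. The first 8 hold TGATGCAA, and the last 4 hold another base at the free position.
AARS1: tctaacttggcTGATGCAActgcgagaaaa
CEBPG: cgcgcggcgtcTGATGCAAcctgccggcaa
CHAC1: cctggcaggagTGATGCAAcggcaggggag
IARS1: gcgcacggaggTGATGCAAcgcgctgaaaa
MARS1: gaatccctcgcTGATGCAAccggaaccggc
NARS1: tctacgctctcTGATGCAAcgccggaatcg
SLC1A5: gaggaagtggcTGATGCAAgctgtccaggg
TARS1: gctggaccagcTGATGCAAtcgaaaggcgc
ASNS: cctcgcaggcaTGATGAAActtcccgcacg
GARS1: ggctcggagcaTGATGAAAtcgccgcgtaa
SLC3A2: ggagcTGATGTAAggagtcctgca
SLC7A1: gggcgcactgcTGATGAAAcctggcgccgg

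The ASNS stretch lies at chr7:97872458-97872487 on the minus strand, with its core 68 bases before the start. That of CHAC1 lies at chr15:40953251-40953280 on the minus strand, with its core 209 bases before the start. The SLC7A1 stretch lies at chr13:29595663-29595692 on the minus strand, and its core begins at base 8 after the start. A match is a description of letters and not a measured binding site. Of the 12 genes with the core, 6 encode tRNA synthetases and 3 encode transporter subunits. No core was found in the RefSeq windows of ATF4, DDIT3, TRIB3, SESN2 or NIBAN1, and ALDH1L2, GPT2, NUPR1, PSPH, SHMT2 and SLC7A11 had no entry.

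The members spanned a wide range of levels. ATF4 mRNA was the highest of them, at 907 to 1186 TPM in HCT15 and 309.6 to 345 TPM in HCT116, and MTHFD2 was next in HCT116, at 209 to 244 TPM. Summed over the 41 genes, TPM was 7212, 7860 and 7247 in RNF26 HCT15 libraries and 8864, 8570 and 8284 in HCT15 controls. In HCT116 the sum was 2907, 2998 and 2685 with RNF26 and 2873, 2835 and 2856 in controls. The HCT15 groups did not overlap, the HCT116 groups did, and both HCT15 groups lay above both HCT116 groups. By role, the HCT15 sums of effectors and of transporters did not overlap, and those of factors, enzymes and synthetases did. TPM has a fixed total, of which ribosomal protein genes averaged 27.0% in RNF26 HCT15 libraries and 21.2% in HCT15 controls. Their part in the sums was not tested. Tests covered 15584 genes that reached 1 TPM in 3 or more of the 12 libraries, and 39 members passed. ALDH1L2, a mitochondrial folate dehydrogenase, at 0.39 to 1.01 TPM, and CBS, which makes cystathionine, at 0 to 0.17 TPM, did not pass. NUPR1, VLDLR and SLC6A9 passed through HCT15 alone and STC2 through HCT116 alone.

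**Figure D1:**
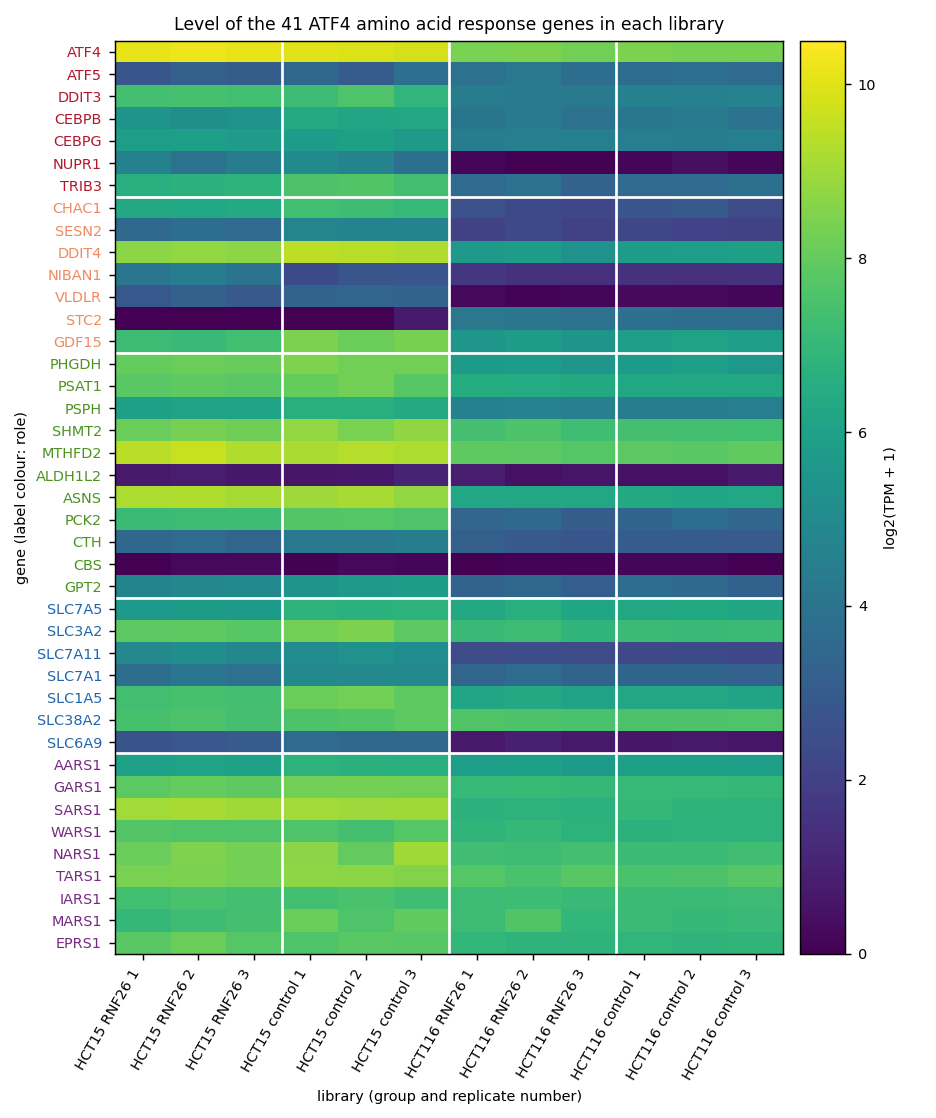
Level of each of the 41 genes (down the page, grouped by role) in each of the 12 libraries (across), as log2(TPM + 1), with RNF26 libraries left of control libraries within each line. Most genes are brighter in HCT15 than in HCT116, STC2 is the reverse, and ALDH1L2 and CBS are dark throughout.

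In HCT15, more of the genes were lower than higher with RNF26. Of 39 tested members 22 fell, 3 rose and 14 were not called by limma at a Benjamini-Hochberg adjusted p under 0.05 over all tested genes, where 31.2% of all tested genes fell and 5.39% rose. On deposited TPM the median log2 difference of the members was -0.35, against -0.17 for all tested genes. Differences are on the log2(TPM + 1) scale, which understates the change of low genes. The RNF26 libraries lay wholly below the controls for 23 members and wholly above them for 2, against 35.9% and 7.23% of all tested genes. The 23 include STC2, which was under 1 TPM in every HCT15 library. Among the 35 members that reached 1 TPM in both lines 20 lay wholly below and 2 wholly above. Without HCT15 control replicate 3, 23 members fell and 2 rose, against 28.8% and 4.19% of all tested genes. With median-ratio scaling, which moved the median of all genes to 0, the split was 15 lower and 9 higher, against 16.7% and 14.4% of all genes under that scaling. It was 17 lower and 5 higher once genes of mitochondria and ribosomal proteins were dropped from TPM, against 22.5% and 9.12% of all genes. With GC content and length corrected it was 16 and 5, against 16.2% and 11.9% of all genes. Immediate early genes, which answer growth factors and the handling of cells, also fell with RNF26 in HCT15, in 11 of 12 tested and with a median of -0.78. Of 7 tested epithelial line markers 4 fell with RNF26 in HCT15 and none rose, beside 31.2% and 5.39% of all tested genes. Their median was -0.46, with VIL1 at -1.59 and CDX2 at -1.37. The part of either list in the result was not tested.

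**Figure D2:**
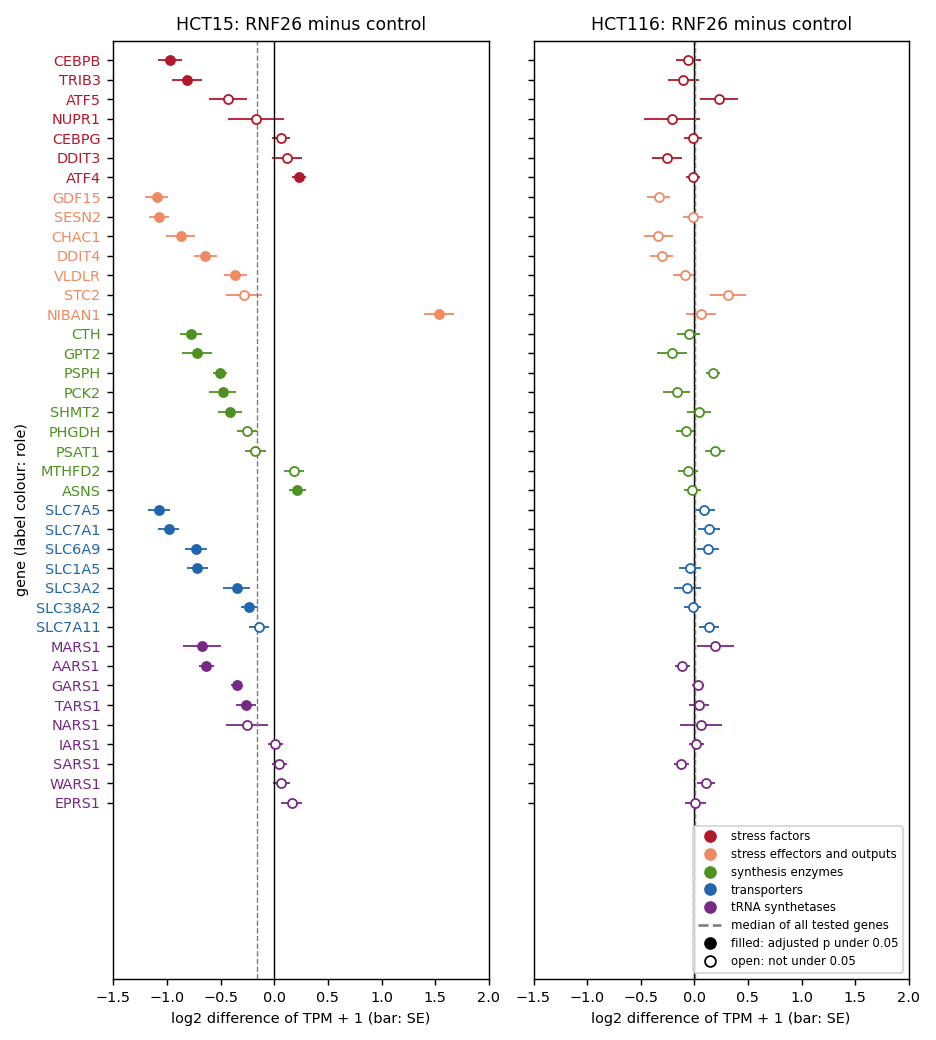
Log2 difference of TPM + 1 between RNF26 and control libraries for each tested gene (points, bars are standard errors) in HCT15 (left) and HCT116 (right), coloured by role. Filled points passed an adjusted p under 0.05, and the dashed line is the median of all tested genes. In HCT15, 22 points are filled below 0 and 3 above it, and in HCT116 none is filled.

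Among the stress factors in HCT15, ATF4 mRNA rose slightly with RNF26, and the mRNAs of CEBPB and TRIB3 fell. ATF4 (chr22:39519695-39522685, GRCh38) had 1098, 1186 and 1149 TPM in RNF26 HCT15 libraries, against 1033, 992 and 907 TPM in HCT15 controls. Every RNF26 library was above every control, by a log2 difference of 0.23 (SE 0.0667, adjusted p = 0.0202) in limma. That small rise was lost with quantile normalization, where it was 0.06 (limma adjusted p = 0.562). It was also lost without RNF26 replicate 2 (limma adjusted p = 0.0605) or 3 (0.0544). A separate fit of each line and the replicate block ended the ATF4 call too. Under the other scalings it stayed called, with a difference of up to 0.55. CEBPB, a C/EBP factor that can pair with ATF4, had 41.9, 36.7 and 40.3 TPM with RNF26 and 84.8, 73.8 and 77.4 TPM in controls. The CEBPB groups were far apart, and it fell by a log2 difference of -0.97 (SE 0.114, adjusted p = 1.38e-04). TRIB3, a pseudokinase induced by ATF4 that restrains its activity, had 97.3, 105 and 108 TPM with RNF26 and 189, 201 and 159.8 TPM in controls. It fell with no overlap, by a log2 difference of -0.81 (SE 0.142, adjusted p = 0.00124).

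The other 4 stress factors were not called in HCT15. DDIT3, the factor CHOP of prolonged stress, had 162, 173 and 161 TPM with RNF26 and 151, 195 and 119 TPM in controls, a log2 difference of 0.12 (SE 0.139, adjusted p = 0.554). Its RNF26 libraries were close together and lay within the spread of the controls. Without control replicate 2, the highest control for DDIT3, the difference was 0.30 (limma adjusted p = 0.0381). Of the exon bases of DDIT3 27.2% overlap MARS1 on the other strand, and the labels do not say whether quantification used strand. ATF5, an ATF4-like factor also raised by eIF2 phosphorylation, had 6.02, 8.41 and 7.48 TPM with RNF26 and 10.6, 7.41 and 13.1 TPM in controls. The ATF5 groups overlapped, and the log2 difference was -0.43 (SE 0.178, adjusted p = 0.0800). NUPR1, a small stress-induced nuclear protein, had 23.5, 14.6 and 20.6 TPM with RNF26 and 31.5, 24.9 and 13.1 TPM in controls, with overlap and a log2 difference of -0.17 (SE 0.261, adjusted p = 0.654). CEBPG, a C/EBP partner of ATF4 that holds TGATGCAA, ranged 54.4 to 60.5 TPM with RNF26 and 48.6 to 61.6 TPM in controls, a log2 difference of 0.061 (adjusted p = 0.614) in limma.

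The effectors held both the largest fall and the largest rise among the members in HCT15. Of 7 tested, 5 fell and 1 rose, with a median of -0.64, where 31.2% of all tested genes fell and 5.39% rose, with a median of -0.17. GDF15 (chr19:18374731-18389176), a secreted stress cytokine that curbs appetite in animals, had 146, 137 and 157 TPM with RNF26 and 345, 282 and 320.4 TPM in controls. It fell with no overlap, by a log2 difference of -1.10 (SE 0.108, adjusted p = 6.01e-05). SESN2 (chr1:28259527-28282491), a leucine sensor that restrains mTORC1, had 10.9, 12.8 and 11.8 TPM with RNF26 and 26.8, 25.7 and 25.8 TPM in controls. The SESN2 controls were within a narrow range and all above the RNF26 libraries, with a log2 difference of -1.08 (SE 0.0927, adjusted p = 3.83e-05). CHAC1, an enzyme that breaks down glutathione, had 80.2, 75.4 and 83.8 TPM with RNF26 and 159.8, 151 and 131 TPM in controls, and fell by a log2 difference of -0.87 (SE 0.135, adjusted p = 6.08e-04). DDIT4, also called REDD1, another restraint on mTORC1, ranged 402 to 438 TPM with RNF26 and 606 to 692 TPM in controls, and fell, with a log2 difference of -0.64 (adjusted p = 8.83e-04) on the log2 scale in limma. Of its exon bases 41.2% are shared with its antisense gene.

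NIBAN1 (chr1:184790724-184974550) went against the rest of the effectors. This stress-induced gene, tied to eIF2 phosphorylation, had 16.3, 20.2 and 15.0 TPM in RNF26 HCT15 libraries and 4.18, 5.95 and 5.74 TPM in controls. The lowest RNF26 library was above the highest control, and the log2 difference was 1.53 (SE 0.141, adjusted p = 4.68e-05). VLDLR, a lipoprotein receptor, ranged 6.35 to 8.19 TPM with RNF26 and 8.96 to 9.77 TPM in controls and fell, with a log2 difference of -0.36 (adjusted p = 0.0208) in limma, a call that ended under all 4 other scalings. STC2, a secreted glycoprotein, was at 0 to 0.02 TPM with RNF26 and 0.04 to 0.71 TPM in controls, too low in HCT15 for a difference to be read.

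**Figure D3:**
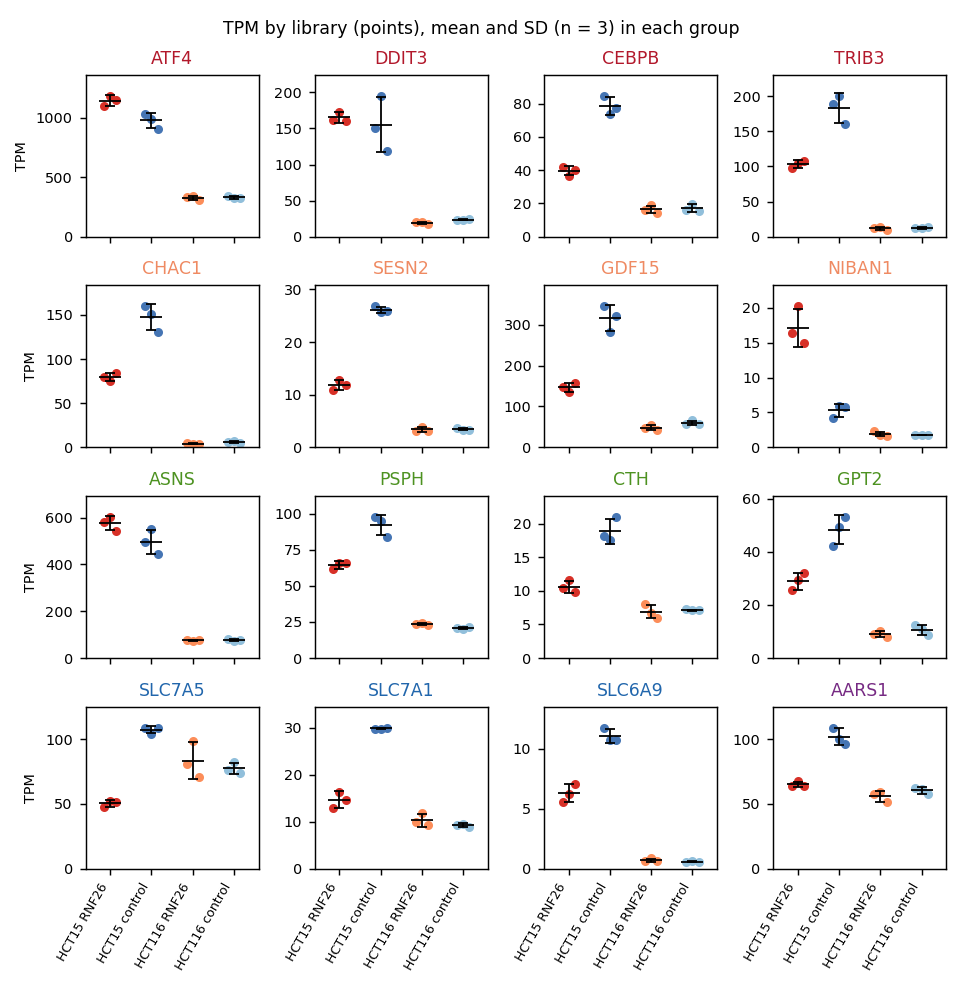
TPM (vertical axis, from 0) of 16 genes in each library (points), with the mean and SD of the 3 libraries of each group, RNF26 left of control within each line and titles coloured by role. In HCT15, ATF4 and NIBAN1 lie higher with RNF26 with no overlap, ASNS lies higher with overlap, and 12 of the others lie lower with no overlap. DDIT3 overlaps, and the HCT116 groups lie close together in most panels.

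Among the synthesis enzymes, 5 of the 9 tested fell in HCT15 and 1 rose, with a median of -0.41, beside 31.2% of all tested genes lower, 5.39% higher and a median of -0.17. PSPH, the phosphatase of the last step of serine synthesis, had 61.4, 65.9 and 66.1 TPM with RNF26 and 97.6, 94.6 and 83.9 TPM in controls. It fell with no overlap, by a log2 difference of -0.51 (SE 0.0671, adjusted p = 2.57e-04). The reads of PSPH may be shared with its pseudogene PSPHP1, which ranged from 0 to 7.13 TPM over the libraries. The earlier steps, PHGDH at 259 to 278 TPM with RNF26 and 305 to 358 TPM in controls and PSAT1 at 225 to 236 TPM with RNF26 and 219 to 305 TPM in controls, were not called in limma, with log2 differences of -0.26 (adjusted p = 0.0504) and -0.18 (adjusted p = 0.176). Without control replicate 3, the PSAT1 difference was -0.30 and called (limma adjusted p = 0.00697). CTH, which releases cysteine from cystathionine, had 10.4, 11.6 and 9.80 TPM with RNF26 and 18.1, 17.5 and 21.0 TPM in controls. All CTH controls were above the RNF26 libraries, with a log2 difference of -0.78 (SE 0.105, adjusted p = 2.88e-04). GPT2, the mitochondrial alanine aminotransferase, had 25.6, 29.2 and 31.9 TPM with RNF26 and 42.3, 49.4 and 53.0 TPM in controls. It fell with no overlap, with a log2 difference of -0.72 (SE 0.142, adjusted p = 0.00249), a call that did not hold with GC content and length corrected (-0.35, adjusted p = 0.0560). PCK2, the mitochondrial enzyme that makes phosphoenolpyruvate, had 141, 147 and 150.1 TPM with RNF26 and 208, 215 and 192 TPM in controls and fell with no overlap, with a log2 difference of -0.48 (SE 0.127, adjusted p = 0.0119). The PCK2 call ended with median-ratio scaling (-0.26, limma adjusted p = 0.0984) and with GC content and length corrected (-0.095, limma adjusted p = 0.485).

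ASNS and the mitochondrial one-carbon enzymes differed from these. ASNS (chr7:97852118-97872542), which makes asparagine and whose promoter element is among the sequences above, had 583, 602 and 542 TPM with RNF26 and 495, 550.2 and 446 TPM in controls. Its groups overlapped by a single control library, and the log2 difference was 0.22 (SE 0.0771, adjusted p = 0.0475). Without control replicate 3 it was 0.14 and not called (limma adjusted p = 0.136). The ASNS call ended under 14 of the 24 other settings, and over all settings its limma adjusted p ran to 0.157. ASNS shares 44.6% of its exon bases with a transcript on its own strand. SHMT2, which feeds serine into mitochondrial one-carbon units, ranged 285 to 324 TPM with RNF26 and 333 to 448 TPM in controls, and was called lower, with a log2 difference of -0.41 (adjusted p = 0.0142) in limma. The SHMT2 call ended under 6 other settings, among them 3 scalings and the fits without control replicate 1 or RNF26 replicate 1, and the difference was -0.043 (limma adjusted p = 0.785) with GC content and length corrected. MTHFD2, the next enzyme, ranged 599 to 789.9 TPM with RNF26 and 581 to 634 TPM in controls, a log2 difference of 0.18 (adjusted p = 0.148) that was not called. With median-ratio scaling the MTHFD2 difference was 0.40 and called (limma adjusted p = 0.00290).

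Of the 7 amino acid transporters 6 were called lower in HCT15 and none higher, with a median of -0.72, beside 31.2% of all tested genes lower, 5.39% higher and a median of -0.17. SLC7A5 (chr16:87830023-87869488), the large neutral amino acid exchanger LAT1, had 47.5, 52.0 and 51.8 TPM with RNF26 and 109, 104 and 109 TPM in controls. Every SLC7A5 control was above every RNF26 library, and the log2 difference was -1.07 (SE 0.101, adjusted p = 5.08e-05). SLC7A1, which takes up arginine and lysine and holds the core 8 bases after its start, had 12.9, 16.4 and 14.7 TPM with RNF26 and 29.8, 29.9 and 30.0 TPM in controls. The SLC7A1 controls hardly differed from one another, and it fell, with a log2 difference of -0.98 (SE 0.0998, adjusted p = 6.51e-05). SLC6A9, the glycine transporter GLYT1, had 5.61, 6.26 and 7.08 TPM with RNF26 and 11.8, 10.8 and 10.7 TPM in controls, no overlap, and a log2 difference of -0.73 (SE 0.102, adjusted p = 3.60e-04). SLC1A5, the glutamine exchanger ASCT2, ranged 159 to 175 TPM with RNF26 and 235 to 307 TPM in controls, and fell, with a log2 difference of -0.72 (adjusted p = 3.78e-04) in limma. SLC3A2, the heavy chain that carries SLC7A5 and SLC7A11 to the membrane, was called lower by less, with a log2 difference of -0.35 (adjusted p = 0.0471), at 219 to 237 TPM with RNF26 and 233 to 344 TPM in controls. SLC38A2, a sodium-coupled transporter of small neutral amino acids, ranged 166 to 187 TPM with RNF26 and 189 to 232 TPM in controls, a difference of -0.23 (adjusted p = 0.0404). SLC7A11, the cystine and glutamate exchanger, ranged 28.8 to 35.8 TPM with RNF26 and 32.1 to 39.0 TPM in controls and was not called, at -0.14 (adjusted p = 0.281) in limma. With median-ratio scaling and quantile normalization SLC7A11 lay above 0, and the calls of SLC3A2 and SLC38A2 ended under 17 and 14 of the 24 other settings, both of these scalings included.

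Of the 9 tRNA synthetases, which load amino acids onto tRNAs, 4 were called lower in HCT15 and none higher, with a median of -0.26, beside 31.2% of all tested genes lower, 5.39% higher and a median of -0.17. AARS1, for alanine, had 63.7, 67.5 and 64.2 TPM with RNF26 and 109, 100.4 and 96.1 TPM in controls. It fell with no overlap, by a log2 difference of -0.63 (SE 0.0714, adjusted p = 1.10e-04). GARS1, for glycine, had 232, 259.8 and 239 TPM with RNF26 and 310.3, 317 and 306 TPM in controls. The fall of GARS1 was smaller but its libraries were tight, with a log2 difference of -0.35 (SE 0.0553, adjusted p = 6.68e-04). MARS1, for methionine, had 126, 151 and 169 TPM with RNF26 and 279.9, 194 and 243 TPM in controls. MARS1 libraries were more spread in both groups, without overlap, and it fell, with a log2 difference of -0.68 (SE 0.175, adjusted p = 0.0113), a call lost with median-ratio scaling (-0.46, adjusted p = 0.0538) and without RNF26 replicate 1 (-0.56, 0.0504). TARS1, for threonine, ranged 313 to 348 TPM with RNF26 and 366 to 419 TPM in controls and was called lower, with a log2 difference of -0.26 (adjusted p = 0.0480) in limma. The TARS1 call ended under 16 of the 24 other settings, all 4 other scalings included, and the difference was -0.041 (limma adjusted p = 0.804) with median-ratio scaling. The others were not called, from -0.26 for NARS1 (asparagine) through IARS1 (isoleucine), SARS1 (serine) and WARS1 (tryptophan) to 0.16 for EPRS1 (glutamate and proline). NARS1 controls ran from 254 to 509 TPM, wider than its RNF26 libraries at 273 to 355 TPM, and without control replicate 2 its difference was -0.54 (limma adjusted p = 0.00479).

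Members with and without the promoter core were counted side by side. Of the 12 members with TGATGNAA 8 fell and 1, ASNS, rose in HCT15, with a median of -0.35, and of the 22 tested members whose promoter lacked it 11 fell and 2 rose, with a median of -0.32. Of all tested genes 31.2% fell and 5.39% rose, with a median of -0.17. No test was run on this split.

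In HCT116 no member was called with RNF26, and RNF26 was the only gene called among 15584, 0.00642% of those tested, with 0% lower. The smallest adjusted p of a member in limma was 1, and 4 members had an unadjusted p under 0.05, against 4.22% of all tested genes. The median log2 difference of the members was -0.016, against 0.007 for all tested genes. RNF26 libraries lay wholly above the controls for 5 members and wholly below them for 4, against 7.25% and 5.56% of all tested genes. SLC6A9 among those above and NUPR1 among those below were under 1 TPM in every HCT116 library. Of the 35 members that reached 1 TPM in both lines 3 lay wholly above and 3 wholly below. GDF15 had 46.4, 54.7 and 42.0 TPM with RNF26 and 57.6, 66.1 and 56.5 TPM in HCT116 controls, a log2 difference of -0.33 (SE 0.108, unadjusted p = 0.0107) in the limma fit, with no overlap. CHAC1 had 5.04, 4.16 and 3.74 TPM with RNF26 and 6.06, 6.75 and 4.42 TPM in controls, a log2 difference of -0.34 (SE 0.135, unadjusted p = 0.0299) in the limma fit, with overlap. DDIT4 ranged 38.3 to 53.1 TPM with RNF26 and 53.9 to 61.3 TPM in controls, a difference of -0.30 (SE 0.106, unadjusted p = 0.0151) in the limma fit. PSPH lay the other way, at 23.3, 23.9 and 22.8 TPM with RNF26 and 20.7, 19.9 and 21.3 TPM in controls, a difference of 0.17 (SE 0.0671, unadjusted p = 0.0269) in the limma fit. None of these 4 passed adjustment over all genes.

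Further HCT116 values set the factors beside ASNS and STC2. ATF4 had 334, 342 and 309.6 TPM with RNF26 and 345, 322 and 327 TPM in HCT116 controls. ASNS had 75.4, 74.8 and 77.6 TPM with RNF26 and 81.1, 73.8 and 75.9 TPM in controls. Both pairs of groups overlapped. DDIT3 had 20.9, 19.7 and 17.8 TPM with RNF26 and 23.5, 22.6 and 23.9 TPM in controls, and its RNF26 libraries lay below the controls. ATF5 had 14.2, 17.3 and 12.8 TPM with RNF26 and 12.2, 13.2 and 11.8 TPM in controls, where the groups overlapped. STC2, nearly absent in HCT15, had 16.8, 16.4 and 14.7 TPM with RNF26 and 13.3, 12.6 and 11.98 TPM in HCT116 controls, with every RNF26 library above every control and no call (0.31).

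The test of the difference between lines, the RNF26 effect in HCT15 minus that in HCT116, called 13 members below 0 and 1 above it in limma, against 18.7% and 1.8% of all tested genes. Of the 35 members that reached 1 TPM in both lines 12 were called below 0 and 1 above it. The median over the members was -0.34, against -0.18 for all tested genes. With median-ratio scaling 10 were below and 5 above, against 7.35% and 5.99% of all genes. Without mitochondrial and ribosomal protein genes 11 were below and 4 above, against 11.7% and 3.31%, and with GC and length corrected 10 and 3, against 6.82% and 4.24%. SLC7A5 had 80.8, 98.8 and 71.0 TPM with RNF26 and 76.3, 82.4 and 74.1 TPM in HCT116 controls, a range that covered its controls, and its difference of effects was -1.17 (SE 0.143, adjusted p = 0.00131). SESN2 had 3.11, 3.94 and 3.14 TPM with RNF26 and 3.69, 3.36 and 3.25 TPM in HCT116 controls, and differed by -1.06 (SE 0.131, adjusted p = 0.00131). SLC7A1 had 9.88, 11.8 and 9.26 TPM with RNF26 and 9.38, 9.56 and 8.85 TPM in HCT116 controls, and differed by -1.12 (SE 0.141, adjusted p = 0.00131). In all 3 the HCT116 groups overlapped and the HCT15 groups did not. NIBAN1 had 2.28, 1.80 and 1.67 TPM with RNF26 and 1.84, 1.74 and 1.79 TPM in HCT116 controls, and was the only member above 0, at 1.47 (SE 0.199, adjusted p = 0.00168).

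The other calls of that test were CEBPB at -0.91 (adjusted p = 0.00442), TRIB3 at -0.71 (adjusted p = 0.0299) and GDF15 at -0.77 (adjusted p = 0.00700) among factors and effectors, in limma. Among enzymes they were PSPH at -0.68 (adjusted p = 0.00185) and CTH at -0.72 (adjusted p = 0.00794), in limma. Among transporters they were SLC1A5 at -0.68 (adjusted p = 0.00918) in limma and SLC6A9 at -0.86, given with no test. SLC6A9 was under 1 TPM in every HCT116 library and passed the filter through HCT15 alone, so a change in HCT116 could hardly show. Among synthetases they were AARS1 at -0.52 (adjusted p = 0.00614), GARS1 at -0.38 (adjusted p = 0.00775) and MARS1 at -0.87 (adjusted p = 0.0307), in limma. Of the 14 calls 10, that of SLC6A9 included, held under each of the 23 other settings, and those of TRIB3, MARS1, SLC1A5 and GARS1 ended in at least 1. For ATF4 the difference of effects was 0.24 (adjusted p = 0.0944) in limma, which was not a call as deposited but was one with median-ratio scaling (0.47, adjusted p = 0.00613).

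Between the control cells, nearly all the tested members were higher in HCT15 than in HCT116. Of 39 tested members 36 were higher in HCT15 and 1 was lower, in limma, against 43.6% and 26% of all tested genes. The direction of 4 of them was fixed by the filter, since NUPR1, VLDLR and SLC6A9 reached 1 TPM in HCT15 alone and STC2 in HCT116 alone. Of the 35 members that reached 1 TPM in both lines 33 were higher and none was lower, with a median of 1.56. The median log2 difference was 1.59 for the 39 and 0.22 for all tested genes. Of the 35 members in both lines 33 lay wholly above and none wholly below, against 44.8% and 27.1% of all tested genes. These HCT15 controls are also the controls of the RNF26 comparison in HCT15, so the comparisons share libraries and their values are only set side by side. All 9 tested enzymes and all 9 synthetases were higher in HCT15 controls, with medians of 2.09 and 0.87. So were 6 of 7 stress factors, 6 of 7 effectors and 6 of 7 transporters. NUPR1 among the factors, VLDLR and STC2 among the effectors and SLC6A9 among the transporters had their direction fixed by the filter. The isoleucine synthetase IARS1 had the smallest difference of the members called higher, at 0.21 (limma adjusted p = 0.0204). It was not called with median-ratio scaling (0.03, limma adjusted p = 0.670).

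**Figure D4:**
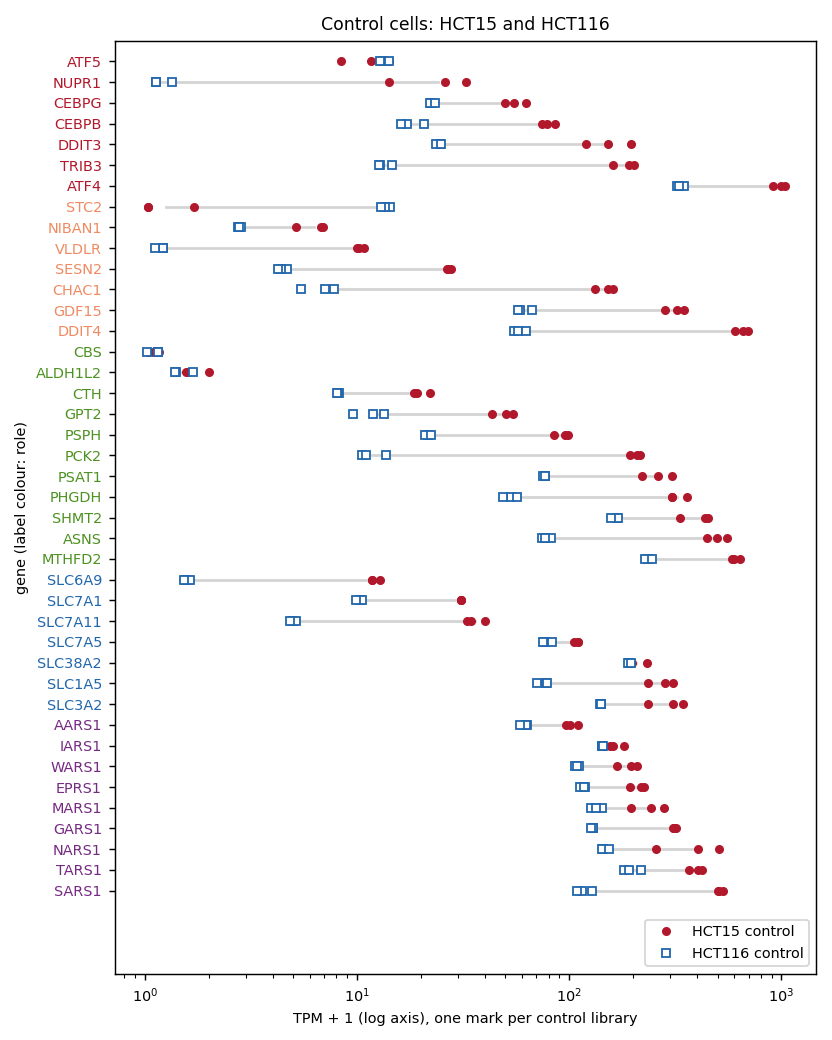
TPM + 1 (log axis) of each of the 41 genes in the 3 control libraries of HCT15 (filled circles) and of HCT116 (open squares), with a grey line joining the means. HCT15 lies to the right for most genes, most widely on this axis for CHAC1, NUPR1, PCK2 and TRIB3, and STC2 is the exception.

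On the log2(TPM + 1) scale the widest gap was that of CHAC1, at 159.8, 151 and 131 TPM in HCT15 controls and 6.06, 6.75 and 4.42 TPM in HCT116 controls, a log2 difference of 4.47 (SE 0.135, adjusted p = 1.56e-10). NUPR1 had 31.5, 24.9 and 13.1 TPM in HCT15 controls and 0.13, 0.35 and 0.13 TPM in HCT116 controls, where it was close to 0, a log2 difference of 4.25, given with no test. PCK2 had 208, 215 and 192 TPM in HCT15 controls and 9.58, 12.7 and 10.0 TPM in HCT116 controls, a log2 difference of 4.14 (SE 0.127, adjusted p = 1.76e-10). TRIB3 had 189, 201 and 159.8 TPM in HCT15 controls and 11.8, 11.7 and 13.7 TPM in HCT116 controls, a log2 difference of 3.78 (SE 0.142, adjusted p = 1.00e-09). None of these 4 overlapped. By the ratio of mean TPM, HCT15 over HCT116 controls, NUPR1 at 114 and VLDLR at 49.98 stood above CHAC1 at 25.6, and both averaged under 1 TPM in HCT116 controls. That ratio was 0.0208 for STC2, a wider gap than that of CHAC1 in the other direction. ATF4 itself averaged 978 ± 64.2 TPM in HCT15 controls and 331 ± 12.1 TPM in HCT116 controls (SD, n = 3 each), 2.95 times as much. DDIT3 averaged 155 ± 38.4 TPM in HCT15 controls and 23.3 ± 0.68 TPM in HCT116 controls (SD, n = 3 each), 6.65 times as much in HCT15, with overlapping MARS1 at 239 ± 42.9 TPM in HCT15 and 133 ± 7.66 TPM in HCT116 controls.

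The exceptions were few. STC2 was the only member called lower in HCT15 controls, at 0.04, 0.04 and 0.71 TPM against 13.3, 12.6 and 11.98 TPM in HCT116 controls, a log2 difference of -3.47, given with no test because only HCT116 libraries brought it past the filter. SLC38A2 had 189, 197 and 232 TPM in HCT15 controls and 189.8, 188 and 195 TPM in HCT116 controls and was not called, at 0.10 (adjusted p = 0.264). ATF5 had 10.6, 7.41 and 13.1 TPM in HCT15 controls and 12.2, 13.2 and 11.8 TPM in HCT116 controls and was not called, at -0.27 (adjusted p = 0.204). ATF5 was called lower in HCT15 with median-ratio scaling (-0.43, limma adjusted p = 0.0393), with quantile normalization and after the GC and length correction.

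Some members that fell with RNF26 in HCT15 still lay above HCT116 controls. TRIB3 averaged 103 ± 5.52 TPM in RNF26 HCT15 cells, against 183 ± 21.1 TPM in HCT15 controls and 12.4 ± 1.10 TPM in HCT116 controls (SD, n = 3 each). SESN2 averaged 11.8 ± 0.92 TPM in RNF26 HCT15 cells, 26.1 ± 0.60 TPM in HCT15 controls and 3.43 ± 0.23 TPM in HCT116 controls. SLC7A5 and AARS1 differed from this. SLC7A5 averaged 50.4 ± 2.57 TPM in RNF26 HCT15 cells, below the 77.6 ± 4.30 TPM of HCT116 controls, and AARS1 averaged 65.1 ± 2.09 TPM, near the 60.4 ± 2.59 TPM of HCT116 controls. RNF26 HCT15 and HCT116 controls differ in line and treatment at once, so no test was made between them.

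Other genes of the pathway were read from lists outside the 41. Of 29 tested genes known to respond to ATF4, 16 fell and 2 rose in HCT15, with a median of -0.31, where 31.2% of all tested genes fell and 5.39% rose, with a median of -0.17. Of the same 29 genes 26 were higher in HCT15 than in HCT116 controls and none was lower, against 43.6% and 26% of all tested genes. TXNIP, a glucose-responsive arrestin that ATF4 has been linked to, had 127, 135 and 128 TPM with RNF26 and 72.5, 76.1 and 72.7 TPM in HCT15 controls, a rise of 0.81 (SE 0.0707, adjusted p = 3.87e-05). ALDH18A1, the first enzyme of proline synthesis, fell, with a log2 difference of -0.64 (adjusted p = 7.60e-05) and the neutral amino acid transporter SLC43A1 by -0.86 (adjusted p = 1.02e-04), in limma. Among the kinases, phosphatase subunits and exchange factor subunits of eIF2, 8 of 16 fell and none rose, with a median of -0.27. EIF2B5 and EIF2B3, subunits of the exchange factor eIF2B, fell, with a log2 difference of -0.58 (adjusted p = 1.43e-04) and -0.57 (adjusted p = 1.60e-04), in limma. PPP1R15A, the stress-induced GADD34 that helps to dephosphorylate eIF2 and is itself raised by ATF4, had 85.8, 109 and 89.8 TPM with RNF26 and 178, 152 and 176 TPM in HCT15 controls, and fell, with a log2 difference of -0.83 (SE 0.114, adjusted p = 3.20e-04). The eIF2 kinases were not named by rule, and the amino acid sensor EIF2AK4, also called GCN2, was at 24.2 to 29.6 TPM with RNF26 and 30.5 to 37.5 TPM in HCT15 controls, chosen after its values were seen.

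Falls in HCT15 were also counted in lists of neighbouring pathways. They are read beside the 31.2% of all tested genes that fell, the 5.39% that rose and the median of -0.17. CARS1, LARS1, YARS1, LONP1 and HSPA9 are in the list of ATF4-responsive genes as well. Of 17 mitochondrial tRNA synthetases, 12 fell, with a median of -0.52, led by CARS2 at -0.64 (adjusted p = 1.41e-04), EARS2 at -0.88 (adjusted p = 4.50e-04) and TARS2 at -0.74 (adjusted p = 4.71e-04), in limma. Of 11 further cytosolic synthetases 6 fell, with a median of -0.31, among them FARSA at -0.79 (adjusted p = 1.08e-04), VARS1 at -1.07 (adjusted p = 1.47e-04) and CARS1 at -0.46 (adjusted p = 1.87e-04), in limma. Of 18 endoplasmic reticulum stress genes of the ATF6 and XBP1 arms 10 fell and 1 rose, with a median of -0.23 and with CRELD2 at -1.21 (adjusted p = 2.30e-05), PDIA4 at -1.05 (adjusted p = 2.71e-05) and CALR at -1.06 (adjusted p = 3.66e-05), in limma. Of 22 genes of amino acid sensing 7 fell and 1 rose, a share near that of all genes, with a median of -0.12. The smallest p-values were those of MTOR, the kinase itself, at -0.74 (adjusted p = 1.31e-04), NPRL3 at -0.99 (adjusted p = 2.72e-04) and RPTOR at -0.74 (adjusted p = 0.00174), in limma. Of 15 other one-carbon genes 7 fell, with a median of -0.15, led by MTHFD1 at -0.58 (adjusted p = 5.56e-05), SHMT1 at -0.71 (adjusted p = 9.12e-05) and SFXN3 at -0.52 (adjusted p = 8.35e-04), in limma. Of 9 genes of the mitochondrial unfolded protein response 4 fell, with a median of -0.14, led by CLPP at -0.53 (adjusted p = 2.63e-04), DNAJA3 at -0.50 (adjusted p = 3.41e-04) and LONP1 at -0.55 (adjusted p = 0.00152), in limma. In HCT116 no gene of these lists was called. Between control cells these lists were mixed, with 8 higher and 5 lower in HCT15 among the ATF6 and XBP1 genes and 9 higher and 6 lower among the mitochondrial synthetases, where 43.6% of all tested genes were higher and 26% lower.

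The direction of the HCT15 calls was checked against the scaling of TPM. All 25 called members kept their sign under the 4 other scalings. Of the 25 calls 15 held under each of the 24 other settings, those of CEBPB, TRIB3, CHAC1, SESN2, DDIT4, NIBAN1, GDF15, PSPH, CTH, SLC7A5, SLC7A1, SLC1A5, SLC6A9, AARS1 and GARS1. Under the scalings SESN2 ran from -0.99 to -0.61, SLC7A5 from -0.97 to -0.58, and NIBAN1 from 1.62 to 1.80. MTHFD2, CEBPG, EPRS1, SARS1, WARS1 and IARS1, not called as deposited, were called higher in at least 1 scaling.

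**Figure D5:**
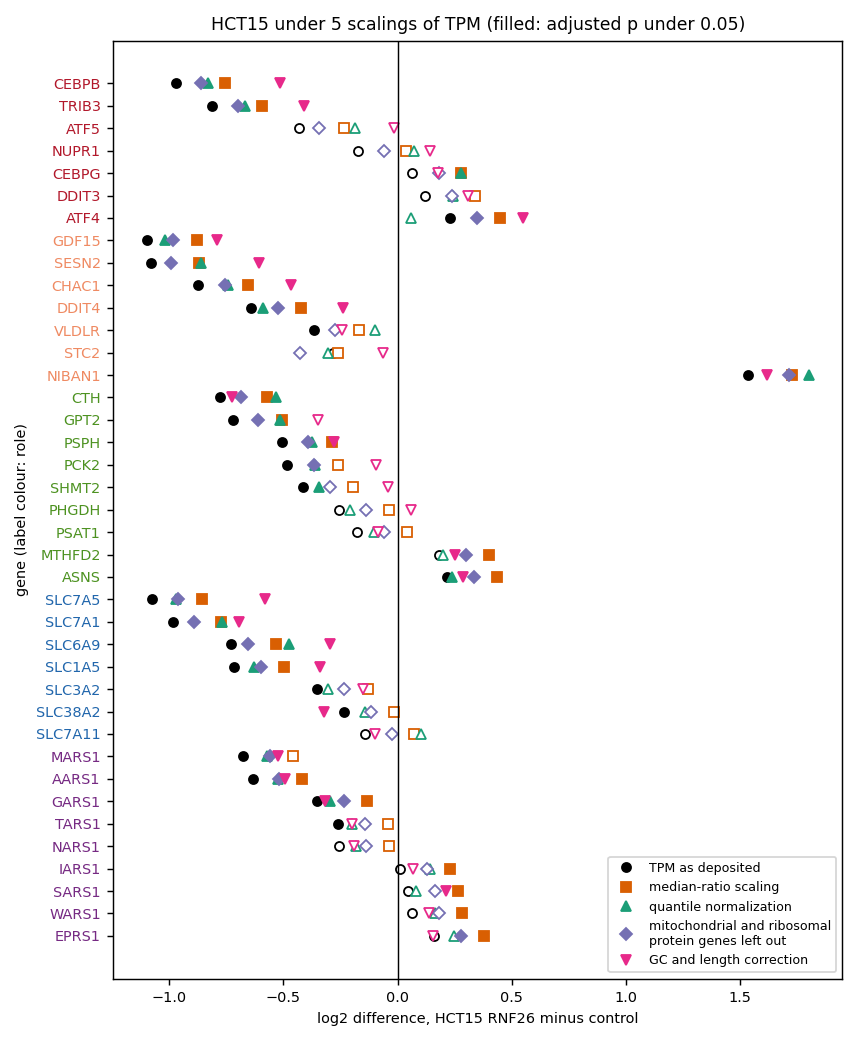
Log2 difference between RNF26 and control HCT15 libraries for each tested gene under 5 scalings of TPM (marker shapes), filled where the adjusted p was under 0.05. Points shift to the right of the deposited scale for most genes, the falls of SESN2, SLC7A5 and GDF15 stay filled, and ATF4 is filled in all but quantile normalization.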

How the data were processed

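Poly(A) RNA from 12 libraries was sequenced, per the labels' protocols with a stranded mRNA kit and paired ends. The authors deposited 1 table of TPM, scaled so that each library sums to about 1000000, with 2 decimals. The submitters' processing notes name RSEM, StringTie, HISAT2 and fastp and the build GRCh38, with no versions, roles or annotation release given. Because the total is fixed, the TPM of a gene also moves with other abundant genes.

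Groups and replicate numbers came from the sample titles. Genes were named by Ensembl number (42300 entries matched a symbol), with positions and exon overlaps from GENCODE 29. Of all entries 15584 had 1 TPM or more in at least 3 libraries and were tested with limma 3.58.1 (R 4.3.3) on log2(TPM + 1), with a mean per group, eBayes with a trend, 8 residual degrees of freedom, two-sided tests and Benjamini-Hochberg adjustment over all tested genes. Genes with an adjusted p under 0.05 were called. The procedure was tested on simulated data. No library was a copy of another, with at least 24770 genes differing between any pair.

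Alternatives were pseudocounts of 0.1 and 5, no filter or a filter of 5 TPM, quantile normalization, median-ratio scaling, TPM without mitochondrial and ribosomal protein genes, a spline correction for GC content and length (95.3% of tested genes had both), a separate fit of each line, eBayes without a trend or robust, the replicate number as a block, and each library left out. The members and lists were chosen with earlier results of these data known. Values of each library are given in full for RNF26, ATF4, ATF5, DDIT3, the 3 genes of each role with the smallest p in HCT15, every member called higher there, the 3 with the smallest p of the difference between lines and the 4 with the widest gap between control lines; up to 3 genes of each other list with the smallest p in HCT15 are named. Overlapping genes are uncertain, since use of strand in quantification is not given.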

Additional observations from a re-analysis of the deposited data

Results flagged for a closer look

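For 14 of the 39 tested members the RNF26 effect differed between HCT15 and HCT116 in limma, against 18.7% of all tested genes below 0 and 1.8% above it. The difference of effects, HCT15 minus HCT116 on the log2(TPM + 1) scale, was below 0 for 13. It was -1.17 for SLC7A5, -1.12 for SLC7A1, -0.86 for SLC6A9 and -0.68 for SLC1A5 among transporters. SLC6A9 was under 1 TPM in every HCT116 library and passed the filter through HCT15 alone, so its value is not read as a test. In the other groups of genes the difference of effects was also given by role. The difference of effects was -1.06 for SESN2, -0.91 for CEBPB, -0.77 for GDF15 and -0.71 for TRIB3 among effectors and factors. Among enzymes it was -0.72 for CTH and -0.68 for PSPH, and among synthetases -0.87 for MARS1, -0.52 for AARS1 and -0.38 for GARS1. NIBAN1 alone was above 0, at 1.47. Of these calls those of TRIB3, MARS1, SLC1A5 and GARS1 ended under at least 1 other setting. RNF26 itself rose by a log2 difference of 0.98 in HCT15 and 4.05 in HCT116, and its part in the difference was not tested.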

How the results depend on the processing

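The counts of members lower in HCT15 and of members below 0 in the difference between lines stayed within 1.5 times their values under every setting run, and HCT116 had 0 calls among members under every setting, with 4 members at an unadjusted p under 0.05. Members called higher in HCT15 with RNF26 were 3 as deposited, 9 with median-ratio scaling, 5 without mitochondrial and ribosomal protein genes, 5 after the GC and length correction and 1 in a separate fit of each line. Of all tested genes 5.39%, 14.4%, 9.12%, 11.9% and 2.4% were called higher there, in the same order. Members above 0 in the difference between lines were 1 as deposited. They were 5 with median-ratio scaling, 4 without mitochondrial and ribosomal protein genes and 3 after the GC and length correction. The shares of all tested genes were 1.8%, 5.99%, 3.31% and 4.24%, in the same order. Members lower in HCT15 controls were 1 as deposited and 2 with median-ratio scaling, quantile normalization or the GC and length correction, against 26%, 32%, 33.6% and 34.3% of all tested genes. Leaving out each library gave 1 to 4 members higher and 16 to 23 lower in HCT15, 1 to 3 above 0 in the difference, and 1 to 2 lower in HCT15 controls. Over all tested genes these fits gave 3.6% to 7.51% higher and 23.9% to 31.1% lower in HCT15. They gave 0.847% to 4.08% above 0 in the difference and 24.1% to 26.3% lower in HCT15 controls. The 4 members higher came without HCT15 control replicate 2 and the 1 without HCT15 RNF26 replicate 2. The causes were not tested, beyond the shift of the median of all genes by scaling. No call changed sign under any setting. The RNF26 calls held under every setting.

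Same-numbered RNF26 and control libraries did not deviate together, with correlations of -0.0313, -0.0424 and -0.0254 in HCT116 and 0.00895, 0.0135 and 0.146 in HCT15, so the numbers were not taken as pairs. With the replicate number as a block 2 members were higher and 22 lower in HCT15, 0 were called in HCT116, 1 was above 0 and 12 below in the difference, and 35 were higher and 1 lower in HCT15 controls. Of all tested genes 5.04% were higher and 27.8% lower in HCT15, and 1.47% above 0 and 13.3% below in the difference. Between control cells 34.2% were higher and 21.6% lower in HCT15. The member counts between control cells include NUPR1, VLDLR, SLC6A9 and STC2, whose direction the filter fixed.

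The 3 libraries of each group and TPM with no depth limit what can be shown for low genes such as STC2 in HCT15 or NUPR1 in HCT116. DDIT3, MARS1, ASNS, DDIT4, ATF5, MTHFD2 and SLC1A5 overlap other exons and are uncertain where reads were split by position. So do CEBPB, SLC7A11, SHMT2, VLDLR, SLC6A9, SLC7A5, WARS1, GARS1 and ALDH1L2, each overlap covering at most 11.8% of a member's exon bases.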
